A study of Mus musculus with 2 samples.

Results

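Erythroblasts in which 40 to 75% of all transcripts came from the adult globin genes were examined in the bone marrow of 2 mice. Members were chosen by measured values: a barcode needed at least 500 UMIs (unique molecular identifiers, 1 for each captured transcript), at most 20% mitochondrial UMIs, a summed share of Hbb-bt, Hbb-bs, Hba-a1 and Hba-a2 of at least 40% and under 75%, at least 3 UMIs of Alas2, Slc4a1, Bpgm, Tent5c and Xpo7 together, and 0 UMIs of the stromal and endothelial genes Cxcl12, Cdh5, Emcn and Stab2. This gave 2984 of 33691 barcodes, 1603 of 19764 in the control library and 1381 of 13927 in the DKO library. The hemoglobin share and the 5 erythroid genes therefore describe the members and are no findings about them.

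The control mouse was labelled WT. The other mouse carried VavCre with 2 floxed Ddx41 alleles together with loss of cGAS (DKO), so that Ddx41, which encodes a DEAD-box helicase, was targeted in blood-forming cells and their descendants by the Vav promoter, while the label gives cGAS, a cytosolic DNA sensor that drives interferon production, as deleted on both alleles. No mouse with either change alone was part of the comparison, so the effects of the 2 changes cannot be told apart. Each genotype was 1 mouse and 1 library of flushed marrow cells, sequenced from the 3′ end of transcripts. Differences below therefore have no replicate check: intervals are exact 95% intervals that cover counting error only, and a gene was counted as higher or lower when its level differed at least 2-fold.

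Red cells form as erythroblasts divide a few last times, fill with hemoglobin, condense and expel the nucleus, and clear their organelles. The middle of this course is where the last divisions end and where genes of nuclear export, autophagy and membrane building are switched up, while most other transcripts, those of ribosomal proteins among them, are lost. Interferon-stimulated genes are known targets of the cGAS pathway and can be read in this lineage as in others.

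Sequences that lie just upstream of 2 markers of the class, Alas2 and Slfn14, are shown here. That of Isg15, the interferon-stimulated gene with the highest level in control, is shown too, since the results turn on these genes. Each is the 250 bases before the RefSeq start, on the gene's strand, in build GRCm38.p6. In the first 2, capitals mark a match to AGATAA or TGATAA on either strand, the letters that GATA factors recognise. In the third, capitals mark 3 overlapping matches, on the strand shown, to GAAA followed by any 2 bases and GAAA again, letters found in interferon response elements and searched on both strands.
Alas2 (chrX:150547167-150547416, plus strand): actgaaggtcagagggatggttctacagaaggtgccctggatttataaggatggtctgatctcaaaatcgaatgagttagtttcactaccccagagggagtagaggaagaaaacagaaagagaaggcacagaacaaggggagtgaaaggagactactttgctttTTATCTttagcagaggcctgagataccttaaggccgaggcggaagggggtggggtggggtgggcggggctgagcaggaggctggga
Slfn14 (chr11:83286727-83286976, minus strand): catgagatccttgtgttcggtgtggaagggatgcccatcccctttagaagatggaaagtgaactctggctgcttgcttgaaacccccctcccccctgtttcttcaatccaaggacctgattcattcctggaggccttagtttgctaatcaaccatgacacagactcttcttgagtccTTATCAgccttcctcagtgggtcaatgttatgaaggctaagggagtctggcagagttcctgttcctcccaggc
Isg15 (chr4:156200819-156201068, minus strand): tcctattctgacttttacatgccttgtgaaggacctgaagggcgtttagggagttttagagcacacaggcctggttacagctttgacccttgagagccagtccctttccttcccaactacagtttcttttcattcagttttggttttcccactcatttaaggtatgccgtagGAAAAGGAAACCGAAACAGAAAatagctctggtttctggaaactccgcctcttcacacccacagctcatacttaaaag
The GATA match began 86 bases before the start of Alas2 and 73 bases before that of Slfn14, both on the opposite strand. They occurred in 16.6% of 32851 promoter windows of this length, and in at least 1 window of 7 of 19 matched membrane and skeleton genes and of 3 of 11 matched heme synthesis genes, against 18.8% of all 27025 genes with a window. The interferon response letters occurred in 2.98% of windows, in at least 1 window of 17 of 35 matched interferon-stimulated genes and of 3.46% of all genes. Irf7 had no match in its window. Of the other markers, Tmcc2 had 0 GATA matches in windows 1 and 2 and 1 match in window 3. Only the bases after window 2 were found in an annotated transcript. Xpo7 had no window. These are matches of letters, not measured binding sites.

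Of the 4 marker genes given with the class, the selection used Xpo7 and Alas2, so only Tmcc2 and Slfn14 bear on the label. Xpo7, a nuclear exportin that erythroblasts need for nuclear condensation, stood at 3008 CPM (UMIs of a gene for every 1000000 non-hemoglobin UMIs) in control (95% interval 2957 to 3059) and 3457 in DKO (3412 to 3502). Tmcc2, a membrane protein of late erythroblasts, stood at 1974 and 2214 CPM, Slfn14, a ribosome-associated endoribonuclease, at 659 and 624 CPM, and Alas2, the first enzyme of erythroid heme synthesis, at 3166 and 2992 CPM. Hemoglobin UMIs were left out of the scale because the class was selected on them. After each barcode was thinned to 1000 non-hemoglobin UMIs, which left out 222 control and 57 DKO barcodes, Tmcc2 had a UMI in 55.4% of control and 56.9% of DKO barcodes and Slfn14 in 41.3% and 40.6%. For the selection genes these shares were 93.8% and 92.4% for Alas2 and 54.2% and 48.3% for Xpo7, whose order between libraries was thus opposite to that of its CPM. Among neutrophil barcodes thinned alike, which should lack both genes, Tmcc2 had a UMI in 0.847% and 0.395%, and Slfn14 in 0.265% of control and 0 of 1267 DKO barcodes, which has an exact upper bound of 0.291%. The unthinned shares were 70.3% and 81.9% for Tmcc2 and 56.8% and 62.9% for Slfn14, at median depths of 2370 and 4525 non-hemoglobin UMIs in the erythroblasts and 5644 and 6490 in the neutrophils. Both genes thus stood above their level in neutrophil barcodes, and the name erythroblast was kept.

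The class was not pure. UMIs of 9 leukocyte genes (Ptprc, Coro1a, Laptm5, Cd52, Cd79a, Cd79b, Csf1r, Ctss and Cd74) fell into separate groups of barcodes: 910 control and 924 DKO barcodes had none and 272 and 193 had 1, while 259 and 211 had 12 or more. With 2 or more such UMIs, 421 of 1603 control barcodes (26.3%, exact Clopper-Pearson interval 24.1 to 28.5%) and 264 of 1381 DKO barcodes (19.1%, 17.1 to 21.3%) carried leukocyte RNA. Of 5 lists of other blood lineages, the neutrophil list led in 215 of these control and 153 of these DKO barcodes, and the B and plasma cell list in 138 and 77. Neutrophil genes summed to 74914 CPM in the leukocyte-bearing control barcodes and 81894 CPM in the DKO ones, against 2311 and 886 CPM in the rest. The leukocyte-bearing barcodes had lower levels of the erythroid markers: Xpo7 stood at 1241 and 1879 CPM in them and at 3944 and 3924 CPM in the rest. Mki67 stood at 434 and 761 CPM in them and at 1940 and 3267 CPM in the rest. No doublet caller was run. Whether these barcodes held 2 cells or a leukocyte with hemoglobin transcripts was not tested, and the results on gene lists are given for all members and for the 1182 control and 1117 DKO barcodes with 0 or 1 leukocyte UMI, here called leukocyte-poor. Values of single genes are over all members unless stated otherwise.

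**Figure D1:**
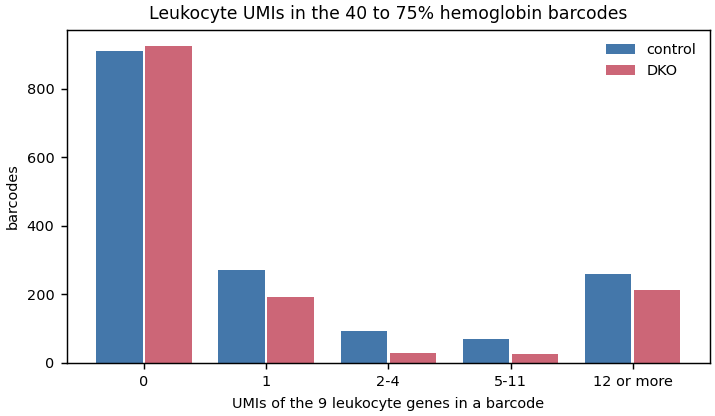
Bars give the number of barcodes with 40 to 75% hemoglobin by their UMIs of 9 leukocyte genes, in the control (blue) and the DKO library (red). Most barcodes sit at 0, and a separate group of 259 control and 211 DKO barcodes has 12 or more.

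The 2 libraries differed in depth and in how they were deposited. Control members had a median of 6504 UMIs and DKO members 10915, of which 2370 and 4525 were not hemoglobin, and the sums over members were 4439934 and 6564370 non-hemoglobin UMIs. The median hemoglobin share was close, 60.3% and 59.4%. The control matrix listed every barcode, 1125245 of them with at most 100 UMIs, while the DKO matrix began at 500 UMIs. Free RNA could so be measured in control alone, where hemoglobin made up 14.5% of it. Had all neutrophil UMIs of leukocyte-poor barcodes been free RNA with this profile, it would have made up 5.99% of control and 2.30% of DKO non-hemoglobin UMIs. At least 500 UMIs were found for 82 barcode sequences in both libraries, and none of them was a member in both. Ddx41 summed to 48 UMIs in control members (10.8 CPM) and 28 in DKO members (4.27 CPM), and to 2483 and 933 UMIs over all barcodes of the libraries. Cgas had 7 and 13 UMIs in members and 1649 and 842 over all barcodes. Whether the sequenced 3′ ends lie in the deleted parts is not given in the sources used here, so these counts do not check the deletions.

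Xpo7 differed little across either edge of the window in control. Control barcodes with 39 to 40% hemoglobin, just outside, had 569 CPM of Xpo7 over 45 barcodes, and those with 40 to 41%, just inside, had 577 CPM over 50 barcodes. The same values in DKO were 410.4 CPM over 32 and 572 CPM over 35 barcodes. At the upper edge Xpo7 stood at 8609 CPM just inside and 8514 CPM just outside in control, and at 13352 and 14206 CPM in DKO. The other threshold mattered for few barcodes, since 19 control and 4 DKO members had exactly 3 UMIs of the 5 erythroid genes and 14 and 12 barcodes with 2 stayed outside.

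Transcripts of the division cycle were lower in barcodes with more hemoglobin. Leukocyte-poor barcodes were followed over 7 steps of 5 percentage points of hemoglobin. The S phase list, 27 genes of DNA replication and nucleotide supply, summed to 6429 CPM in control and 8276 CPM in DKO at 40 to 45% hemoglobin and to 711 and 662 CPM at 70 to 75%. The 27 genes of mitosis held on longer: in control they were at 23809 CPM in the first step, 27378 CPM at 55 to 60%, 8320 CPM at 65 to 70% and 5351 CPM in the last. In DKO they were at 22050, 27089, 13558 and 6200 CPM in the same steps. S phase transcripts were thus already low in both libraries at 60 to 65% hemoglobin, where those of mitosis still stood at 22248 and 23267 CPM. Mki67, the gene of the Ki-67 protein that coats mitotic chromosomes, moved from 2645 to 600 CPM in control and from 3651 to 899 CPM in DKO over the window.

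Genes of nuclear export and organelle clearance took the opposite course. The list of 28 such genes summed to 8433 CPM in the first step and 43756 CPM in the last in control, and to 6589 and 50277 CPM in DKO. This sum includes Xpo7, which went from 815 to 9991 CPM in control and from 222 to 13973 CPM in DKO. It also includes Tmcc2, which went from 606 to 7016 CPM and from 407 to 9107 CPM. Xpo7, which the selection used, was 12.3-fold higher in the last than in the first step in control and 63.1-fold in DKO. Tmcc2, which it did not use, was 11.6-fold and 22.4-fold higher, and Slfn14 7.55-fold and 15.05-fold. Bnip3l, the receptor that marks mitochondria for autophagy, went from 619 to 4071 CPM in control and from 433 to 3448 CPM in DKO. Membrane and heme genes changed less: the membrane and skeleton list went from 25817 to 31835 CPM in control and from 27207 to 39733 CPM in DKO, and the heme synthesis list from 13226 to 17562 and from 13383 to 17007 CPM. The first list includes Slc4a1 and the second Alas2, which the selection used. Slc4a1 went from 3247 to 4562 CPM in control and from 3375 to 6073 CPM in DKO. Alas2 went from 1928 to 5892 and from 2028 to 5451 CPM, which was most of the change in the heme list. Ribosomal protein transcripts declined from 80954 to 37400 CPM in control and from 91150 to 24505 CPM in DKO.

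**Figure D2:**
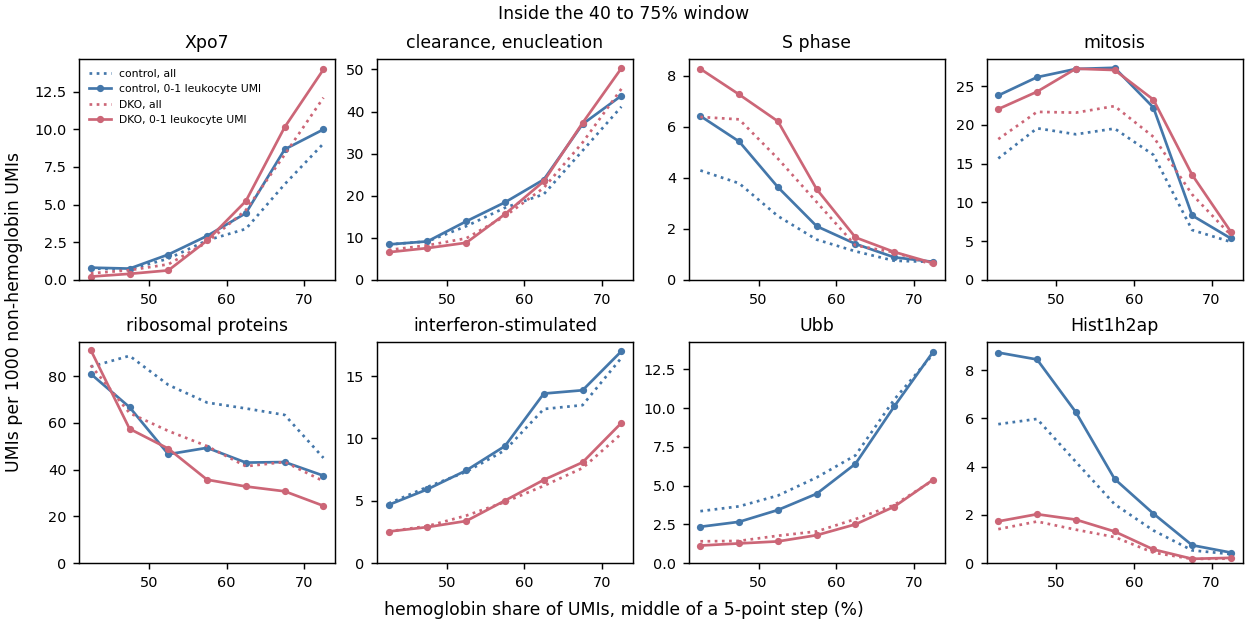
Each panel plots a gene or the sum of a gene list, in UMIs per 1000 non-hemoglobin UMIs, against the hemoglobin share of the barcodes in 7 steps of 5 points, for control (blue) and DKO (red), with leukocyte-poor barcodes as solid lines with points and all members as dotted lines. S phase genes decline first and mitosis genes later, while Xpo7 and the clearance list, which includes it, climb. The interferon-stimulated list, Ubb and Hist1h2ap lie lower in DKO in all 7 steps.

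The neighbouring classes place the window. In leukocyte-poor barcodes of the control library Xpo7 stood at 360 CPM with 15 to 40% hemoglobin, 3944 CPM with 40 to 75%, 2503 CPM with 75 to 90% and 247 CPM with 90% or more. In DKO these levels were 193, 3924, 8229 and 535 CPM. The level of Xpo7 was thus highest in the 40 to 75% class in control and in the 75 to 90% class in DKO. Slfn14 followed the same order, with 873 CPM in the window and 558 CPM at 75 to 90% in control against 713 and 1214 CPM in DKO. Tmcc2 was level between the 2 classes in control, at 2532 and 2502 CPM, and higher in the later class in DKO, at 2502 and 6659 CPM. Alas2 increased through all classes, from 1211 CPM at 15 to 40% to 16461 CPM at 90% or more in control and from 1186 to 19193 CPM in DKO. With 1 library a genotype these differences between classes were not tested. The class held 18.3% of 8755 erythroid barcodes in control (17.5 to 19.1%) and 20.1% of 6881 in DKO (19.1 to 21.04%), while the 75 to 90% class held 42.7% and 20.5%. The class of 90% or more differed the other way, with 14.8% in control and 36.5% in DKO. The DKO matrix held only called barcodes, and the part of this in the shares was not tested.

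**Figure D3:**
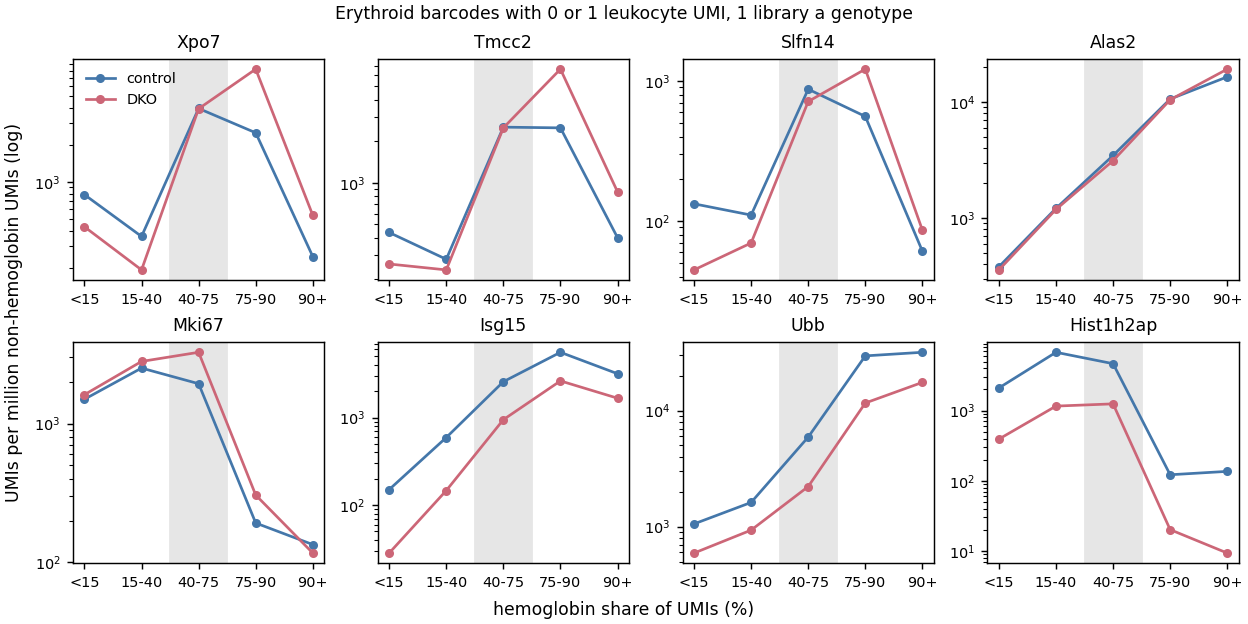
Levels of 8 genes in leukocyte-poor erythroid barcodes, in CPM on a log axis, over 5 classes of hemoglobin share, with the 40 to 75% class shaded. Xpo7 and Tmcc2 meet in the shaded class, Slfn14 is at 873 CPM in control and 713 CPM in DKO there, and all 3 stand higher in DKO (red) than in control (blue) in the 75 to 90% class, while Isg15, Ubb and Hist1h2ap lie lower in DKO in all 5 classes.

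Some genes were highest in this class in both libraries. By a fixed rule, the 10 genes with at least 100 CPM in both libraries and the largest ratio of their level here to the higher of both neighbouring classes were named. This selection used the levels, which are therefore a description. Gch1, the first enzyme of tetrahydrobiopterin synthesis, stood at 960.4 CPM in control and 809.7 CPM in DKO, against 372 and 281 CPM at 15 to 40% and 309 and 396 CPM at 75 to 90%. Cdkn2d, an inhibitor of the G1 cyclin-dependent kinases, stood at 848 and 808 CPM, against 459.9 and 303 CPM before and 90.6 and 58.0 CPM after. The histone gene Hist3h2ba stood at 244 and 249 CPM and Tinagl1 at 176 and 175 CPM, and Golph3l, Gm31452, Usp14 and Afmid completed the erythroid ones. Csf3r and Retnlg, which neutrophils express, were also among the 10, at 157 and 144 CPM and at 1262 and 878 CPM. In leukocyte-poor barcodes these 2 genes were at 8.62 and 6.32 CPM and at 56.2 and 30.0 CPM, so their place among the 10 rested on the leukocyte-bearing barcodes.

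The genotypes were then compared over the 5378 genes with at least 20 CPM in a library. Of these, 96 (1.79%) were at least 2-fold higher in DKO and 218 (4.05%) at least 2-fold lower, with a median log2 ratio of DKO over control of 0.02. Among 4435 genes compared in leukocyte-poor barcodes, 88 (1.98%) were higher and 163 (3.68%) lower, with a median of 0.10.

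Interferon-stimulated genes were lower in DKO. Of 46 listed genes 44 were in the files and 29 reached 20 CPM. All 29 lay below a log2 ratio of 0, 16 of them at least 2-fold lower and none higher, against 4.05% of all genes compared, and the median was -1.14. In leukocyte-poor barcodes 26 were compared, 17 were at least 2-fold lower against 3.68% of all genes, and the median was -1.27. Isg15, a ubiquitin-like modifier, stood at 2214 CPM in control (2171 to 2259) and 817 CPM in DKO (795 to 839), a log2 ratio of -1.44 (-1.49 to -1.39). The ratio was also -1.44 in leukocyte-poor barcodes, and free RNA could account for at most 0.5002% of the control level there. Rsad2, the antiviral enzyme viperin, was at 1462 and 752 CPM (-0.96), Ifi27 at 452 and 120.5 CPM (-1.91), and Irf7, a transcription factor of the interferon response, at 102 and 30.0 CPM (-1.77). Xaf1 was lowest by ratio among those with at least 50 CPM, at 64.6 and 8.84 CPM (-2.85). Ube2l6, the conjugating enzyme for Isg15, and Isg20, an exonuclease, were nearer to control, at 1630 and 1174 CPM (-0.47) and 1487 and 1270 CPM (-0.23). Isg15 lay lower in DKO in all 7 hemoglobin steps, by log2 ratios of -1.83 to -0.91 in leukocyte-poor barcodes.

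The share of cells showed the same difference for Isg15. Among leukocyte-poor barcodes thinned to 1000 non-hemoglobin UMIs, Isg15 had a UMI in 559 of 973 in control (57.5%, exact interval 54.3 to 60.6%) and in 299 of 1063 in DKO (28.1%, 25.4 to 30.9%). The unthinned shares were 69.0% and 50.9%. Neutrophil barcodes, thinned alike, had a UMI in 3.07% and 0.710%. Both erythroblast shares stood above those of the neutrophils, and the direction between libraries was the same in both kinds of cell. Over the hemoglobin classes the list's median in leukocyte-poor barcodes was -1.03 at 15 to 40%, -1.27 at 40 to 75% and -0.52 at 75 to 90%.

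Genes of MHC class I presentation, several of which interferon also induces, were measured beside them. Of 9 measured genes 4 were at least 2-fold lower, against 4.05% of all genes, and none higher, with a median of -0.97. In leukocyte-poor barcodes 4 of 6 were, against 3.68%, 1 lay above 0 and the median was -1.06. B2m, the light chain of class I molecules, stood at 640 and 345 CPM, and H2-K1 and H2-D1, class I heavy chains, at 312 and 135 and at 429 and 202 CPM. Much of this RNA lay in leukocyte-bearing barcodes: H2-K1 was at 86.2 and 42.0 CPM in the leukocyte-poor ones, where its log2 ratio was -1.03 (-1.31 to -0.77). Class I genes share sequence, and reads could have been split between them.

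Ubb, which encodes a chain of ubiquitin repeats, stood at 6267 CPM in control (6194 to 6341) and 2401 CPM in DKO (2363 to 2438), a log2 ratio of -1.38, and lay lower in each of the 7 steps. In leukocyte-poor barcodes it stood at 5910 and 2214 CPM (-1.42). Rps27a, which encodes ubiquitin joined to a ribosomal protein, was at 1265 and 911 CPM (-0.47), and the list of ubiquitin genes had a median of -0.93. Ubb has processed copies elsewhere in the genome, so its count is uncertain where reads could map to more than 1 copy.

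S phase genes had ratios above 0 in this class, but few passed 2-fold. All 23 measured S phase genes lay above 0, 2 of them at least 2-fold, against 1.79% of all genes compared, and the median log2 ratio was 0.61. In leukocyte-poor barcodes the median was 0.49, with 23 of 24 genes above 0 and none 2-fold. The neighbouring classes had medians of 0.22 at 15 to 40% and -0.88 at 75 to 90% hemoglobin in such barcodes. All 14 genes measured at 75 to 90% lay below 0. Pcna, the sliding clamp of DNA polymerase, stood at 238 and 449 CPM and Rrm2, a subunit of ribonucleotide reductase, at 382 and 642 CPM. Ccne2, cyclin E2, had the highest ratio, at 69.6 and 158 CPM (1.18). None of 27 mitosis genes passed 2-fold, with 22 above 0 and a median of 0.37 over all members, and 18 of 27 above 0 and a median of 0.19 in leukocyte-poor barcodes. Mki67 stood at 1418 and 2695 CPM (0.93, interval 0.88 to 0.97) and Top2a, which untangles chromosomes, at 693 and 1197 CPM (0.79), whereas Ube2c, a partner of the anaphase-promoting complex, stood at 3674 and 3143 CPM (-0.23) and Cdc20, its activator, at 177 and 136 CPM (-0.38). Thinned to 1 depth, 64.2% of 973 control (61.1 to 67.3%) and 76.1% of 1063 DKO leukocyte-poor barcodes (73.4 to 78.6%) had a Mki67 UMI, with 67.8% and 88.2% unthinned, and neutrophil barcodes had 9.95% and 8.37%. Barcodes of 6000 to 12000 UMIs in both libraries, a setting added after the depths were seen, gave a median of -0.27 for mitosis, so the direction of that list depended on the depth of the barcodes compared.

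Histone genes of S phase spread in both directions, with 34 of 46 above 0, a median of 0.31, 2 at least 2-fold higher, against 1.79% of all genes, and 2 lower, against 4.05%. In leukocyte-poor barcodes none of 50 was higher, against 1.98% of all genes, and 4 were lower, against 3.68%, with a median of 0.14. Hist1h2ap, which encodes a histone H2A, stood at 3387 CPM in control and 1026 CPM in DKO (-1.72), while the linker histone gene Hist1h1b stood at 1600 and 2489 CPM (0.64) and Hist2h2bb at 218 CPM in DKO, 2.18-fold its level in control. Hist1h2ap was also lower in DKO in the classes on either side, by -2.55 and -2.56 in leukocyte-poor barcodes. Thinned to 1 depth, however, 39.1% of control and 38.6% of DKO leukocyte-poor barcodes had a Hist1h2ap UMI, so this share was close between libraries. In neutrophil barcodes it was 14.2% and 4.97%. Histone genes are near-identical copies with few poly(A) tails, and their counts are uncertain for that reason. Of the cell cycle inhibitors Cdkn1b, p27, stood at 517 and 379 CPM (-0.45) and Rbl1, p107, at 49.8 and 107 CPM (1.10), in a list with 1 of 9 genes at least 2-fold higher, against 1.79% of all genes, 2 lower, against 4.05%, and a median of -0.07. In leukocyte-poor barcodes Rbl1 no longer passed 2-fold, at 0.94. There 1 of 8 genes was lower, against 3.68% of all genes, and the median was -0.14.

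Among transcription factors of the lineage 14 of 21 lay above 0, 1 at least 2-fold higher, against 1.79% of all genes, and none lower, and the median was 0.39. In leukocyte-poor barcodes none of 17 passed 2-fold, and the median was 0.37. Tal1, a core factor of red cell identity, stood at 285 CPM in control and 608 CPM in DKO, a log2 ratio of 1.09 (1.0004 to 1.18), and at 390.4 and 736 CPM in leukocyte-poor barcodes (0.91). A Tal1 UMI was seen in 28.1% and 42.4% of thinned leukocyte-poor barcodes and in 0.424% and 0.710% of neutrophil barcodes. Sox6 stood at 2246 and 3270 CPM (0.54), Foxo3 at 682 and 1027 CPM (0.59), E2f2 at 737 and 1038 CPM (0.49) and Lmo2 at 1072 and 1001 CPM (-0.10). Bcl11a had the lowest ratio, at 58.8 and 34.7 CPM (-0.76), and 18.6 and 4.15 CPM in leukocyte-poor barcodes.

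None of 25 membrane and skeleton genes passed 2-fold in either direction. Of them 23 lay above 0, with a median of 0.43, and 20 in leukocyte-poor barcodes, with a median of 0.29. The band 3 anion exchanger Slc4a1, which the selection used, stood at 3062 and 4095 CPM (0.42), Epb41, protein 4.1, at 2871 and 3676 CPM (0.36), and Dmtn, dematin, at 407 and 767 CPM (0.91). Rhd, of the Rhesus complex, was close between libraries, at 2222 and 2380 CPM (0.10), and had the opposite sign in leukocyte-poor barcodes (-0.09). Mpp1 stood at 626 and 454 CPM (-0.46).

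No heme or iron gene passed 2-fold over all members. The heme synthesis median was 0.20 with none of 12 genes 2-fold in either direction, and 0.10 in leukocyte-poor barcodes. Cpox, coproporphyrinogen oxidase, stood at 793 and 1289 CPM (0.70) and Urod, uroporphyrinogen decarboxylase, at 914 and 833 CPM (-0.13). For iron handling the median was 0.22 over 15 genes, and 0.21 in leukocyte-poor barcodes, with the ferritin heavy chain Fth1 at 10546 and 8938 CPM (-0.24), the mitochondrial iron importer Slc25a37 at 2667 and 3476 CPM (0.38), and the iron-sulfur scaffold Iscu at 358 and 186 CPM (-0.94), which passed 2-fold in leukocyte-poor barcodes (-1.14). Organelle clearance and enucleation genes had a median of 0.02, with Plek2, a factor of enucleation, at 26.4 and 54.2 CPM (1.03) as the single gene of 24 that was 2-fold higher, against 1.79% of all genes, and Gabarapl2, an autophagosome protein, at 1194 and 727 CPM (-0.72). In leukocyte-poor barcodes the log2 ratio of Plek2 was 0.87, none of 23 clearance genes passed 2-fold and the median was -0.10. Genes of poly(A) and RNA turnover had a median of 0.03 over 14 genes, with none 2-fold, and 6 of 12 lay above 0 in leukocyte-poor barcodes, again with none 2-fold.

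None of 76 ribosomal protein genes passed 2-fold in either direction, and 72 lay below 0, with a median of -0.40. Without leukocyte-bearing barcodes the median was -0.18 with 64 of 76 below 0. The median was 0.14 at 15 to 40% and -0.84 at 75 to 90% hemoglobin in leukocyte-poor barcodes. Rpl41 went the other way, at 1533 and 2046 CPM (0.42), and Rpl32 had the lowest ratio, at 976 and 569 CPM (-0.78). All 11 measured genes of the mitochondrial genome lay below 0, with a median of -0.60 and mt-Co3 at 3008 and 2273 CPM. In leukocyte-poor barcodes all 10 did, with a median of -0.55, and none passed 2-fold in either set. Mitochondrial RNA was abundant in the empty droplets of the control library, with 12384 CPM of mt-Co3. Subtracting free RNA of this profile from the leukocyte-poor barcodes gave a median of -0.35 for the genes of the mitochondrial genome. Free RNA was measured in control alone, and its part in this difference was not tested further. Proteasome genes had a median of -0.16 over 37 genes, with 3 at least 2-fold lower, against 4.05% of all genes, and one of -0.17 with none of 34 past 2-fold in leukocyte-poor barcodes.

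Metabolic and stress lists were mixed. Of 10 glycolysis genes 9 lay below 0, with a median of -0.73 and 2 at least 2-fold lower, against 4.05% of all genes, and Bpgm, whose product lowers the oxygen affinity of hemoglobin and which the selection used, stood at 3074 and 1655 CPM (-0.89). In leukocyte-poor barcodes 4 glycolysis genes reached 20 CPM, and 1 of them was at least 2-fold lower, against 3.68% of all genes. Their median was -0.59, where Bpgm had a ratio of -0.93 and the hexokinase Hk1, at 208 and 359.9 CPM, a ratio of 0.79. The antioxidant median was -0.09 over 22 genes, with 1 gene at least 2-fold lower, against 4.05% of all genes. In leukocyte-poor barcodes it was -0.11 over 20 genes, with 1 lower, against 3.68%. Gpx1, glutathione peroxidase, stood at 9055 and 7960 CPM (-0.19) and Prdx2, the main red cell peroxiredoxin, at 6312 and 6507 CPM (0.04). Targets of p53 had a median of 0.00 over 7 genes and apoptosis regulators one of 0.13 over 14, with none 2-fold in either list, and 0.21 over 11 apoptosis regulators in leukocyte-poor barcodes, with Bax at 81.5 and 61.7 CPM and the survival gene Bcl2l1 at 599.6 and 675 CPM. The integrated stress response median was 0.14 over 10 genes, with 1 gene at least 2-fold lower, against 4.05% of all genes. It was 0.02 over 9 genes in leukocyte-poor barcodes, with 1 lower, against 3.68%. Jund, a subunit of AP-1, stood at 895 and 391 CPM (-1.19) in the immediate response list, whose median was -0.33 over 10 genes in all members and 0.70 over 5 in leukocyte-poor barcodes. Genes of early erythroid progenitors had a median of -0.11 over 4 genes and -0.14 over 3 in leukocyte-poor barcodes, with Car1 at 112 and 131 CPM and Apoe, a lipid carrier that macrophages also express, at 99.6 and 33.5 CPM (-1.57).

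All measured markers of other blood lineages lay below 0, and 2 of 11 neutrophil, 6 of 9 monocyte, 6 of 10 B and plasma cell, 4 of 4 T and NK cell and 4 of 4 megakaryocyte genes were at least 2-fold lower, against 4.05% of all genes. The medians were -0.52 for 11 neutrophil genes, -1.12 for 9 monocyte and macrophage genes, -1.07 for 10 B and plasma cell genes, -1.34 for 4 T and NK cell genes and -2.32 for 4 megakaryocyte genes. Summed levels were 27462 and 19380 CPM for the neutrophil list and 337 and 78.8 CPM for the megakaryocyte list. In leukocyte-poor barcodes 8 of 10 neutrophil, 3 of 3 monocyte, 3 of 3 B and plasma cell and 2 of 3 megakaryocyte genes were at least 2-fold lower, against 3.68%, with medians of -1.41, -1.54, -1.30 and -2.48. T and NK cell genes summed there to 16.5 and 3.95 CPM, with none of them at 20 CPM. The cap of 1 leukocyte UMI took no account of depth. Leukocyte-poor barcodes had a median of 2108 non-hemoglobin UMIs in control and 4376 in DKO. Ctss and Csf1r of the monocyte list and Cd79a, Cd79b and Cd74 of the B cell list were among the capped genes. The lower direction in leukocyte-poor barcodes could follow from this selection and is not read as a difference between genotypes. The part of these lineages in the gene differences above was not tested beyond leaving the leukocyte-bearing barcodes out.

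**Figure D4:**
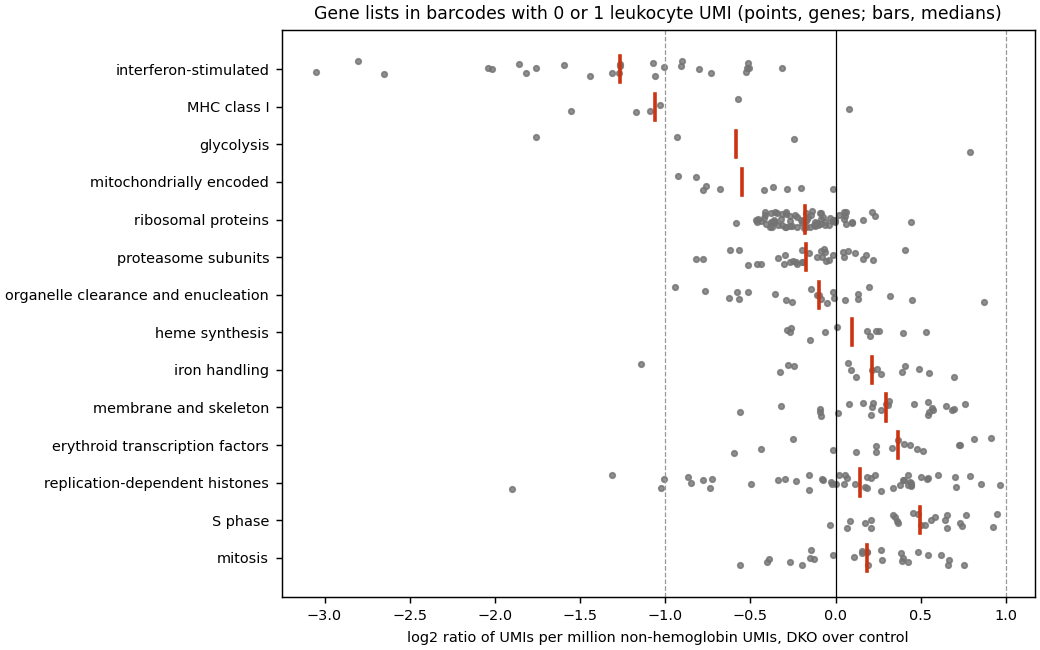
Each point is a gene with at least 20 CPM in a library, placed by its log2 ratio of DKO over control in leukocyte-poor barcodes, red bars are the list medians, and dashed lines mark 2-fold. The interferon-stimulated list has its median at -1.27 with every gene below 0, and the S phase list at 0.49.

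Single genes at the ends of the range were named by rule from those with at least 100 CPM in a library. Among the 10 lowest ratios were those of Igha, Jchain, Ppbp, Pf4, Ifitm1, Iglc2, Ifi27l2a, Ifi27 and Irf7. Igha, Jchain and Iglc2 are antibody genes of plasma cells and Ppbp and Pf4 are platelet genes, and with Ifitm1 and Ifi27l2a they stood at no more than 96.8 CPM in control once leukocyte-bearing barcodes were left out, whereas Ifi27 and Irf7 stood at 532 and 112 CPM. The 10 highest were Trmo, Pbx3, Slc20a1, Aim2, Nup133, Tbcd, Rfx2, Stil, Gse1 and Ccne2. Trmo, a tRNA methyltransferase gene, stood at 27.7 CPM in control (23.02 to 33.1) and 113 CPM in DKO (105 to 121), a 4.05-fold difference that was 1.93 on the log2 scale in leukocyte-poor barcodes and held the same direction in all 7 hemoglobin steps. Trmo lies on chr4:46376505-46389437 (GRCm38, GENCODE M21). The homeobox gene Pbx3 stood at 104 and 274 CPM (1.40), Slc20a1, a phosphate transporter, at 57.2 and 142 CPM (1.31), and Aim2, a sensor of cytosolic DNA, at 86.9 and 215 CPM (1.30). Aim2 was also higher in each of the 7 steps, by log2 ratios of 0.86 to 2.04 in leukocyte-poor barcodes.

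The ratios leaned on gene length. Over the 5378 genes, those in the shortest of 4 equal groups by genomic span had a median log2 ratio of -0.21, with 8.996% at least 2-fold lower, and those in the longest 0.14, with 1.71% lower. Spearman's rho between span and ratio was 0.23 across genes, and 0.31 in leukocyte-poor barcodes. Genes are not independent replicates. Isg15, with a span of 1395 bases, and Hist1h2ap are short, and Pbx3, Tbcd and Gse1 are long. With the trend over span taken out, the interferon-stimulated median was -1.17 and the ribosomal protein median -0.11. The part of gene length in any single difference was not tested.

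**Figure D5:**
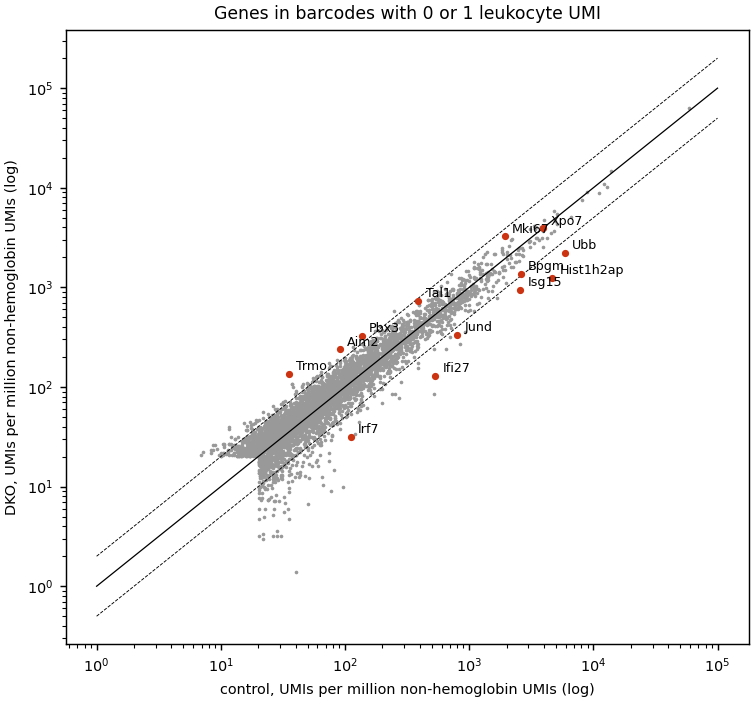
Each grey point is a gene in leukocyte-poor barcodes, with its level in control on the x axis and in DKO on the y axis, both in CPM on log axes, the solid line marks equal levels and the dashed lines 2-fold. Isg15, Ifi27, Irf7, Ubb and Hist1h2ap lie below the lower dashed line, Trmo, Pbx3 and Aim2 above the upper one, and Xpo7 on the line of equal levels.

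The split of hemoglobin between its chains, which the selection did not use, differed between libraries. Alpha globin made up 31.2% of hemoglobin UMIs in control (interval 31.16 to 31.23%) and 36.3% in DKO (36.29 to 36.35%), a ratio of alpha to beta UMIs of 0.453 and 0.570. In leukocyte-poor barcodes the ratios were 0.461 and 0.568. Over the 7 hemoglobin steps the ratio ran from 0.427 to 0.466 in control and from 0.529 to 0.604 in DKO, so the libraries did not overlap in any step. The neighbouring classes had ratios of 0.419 and 0.526 at 15 to 40% and 0.486 and 0.685 at 75 to 90% hemoglobin. Free RNA of the control library had a ratio of 0.496. Within the chains, Hbb-bt over Hbb-bs was 0.316 and 0.301, while Hba-a1 over Hba-a2 was 1.45 and 1.61. The alpha genes, and the beta genes, are near-identical copies, so their counts are uncertain where reads could map to more than 1 copy. Whether this affects the sum of each chain was not tested. The theta globin gene Hbq1b stood at 549 and 363 CPM (-0.60), and the embryonic genes Hbb-bh1 and Hbb-y stayed under 5 CPM in both libraries.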

How the data were processed

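Bone marrow cells of 1 control and 1 DKO mouse were captured with the 10x Chromium 3′ v3 kit. The authors made the deposited counts, UMIs per gene and barcode, with Cell Ranger (version 7.1.0 per the file headers) and build mm10, per the submitters' processing notes. Whether intron reads were counted is not given in the sources used here. The barcode and gene lists that go with the matrices hold names only.

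Counts were summed over member barcodes with Python 3.11.15, scaled to non-hemoglobin UMIs as CPM, and compared for genes with at least 20 CPM in a library after 1 count was added to each sum. Gene symbols that occur more than once (38) were left out. Levels have exact Poisson intervals, ratios exact conditional binomial intervals and shares Clopper-Pearson intervals (scipy 1.17.1), all at 95% and for counting error only. On simulated counts over 5243 genes, 95.4% of intervals held the true ratio. No doublet caller was run. Gene positions are from GENCODE M21 and promoters from RefSeq.

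The members, gene lists and comparisons were chosen with earlier results of these data known. The genes named were the selection genes, markers and targets, up to 4 members with the highest levels and the lowest and highest ratio of each list, the 10 lowest and 10 highest ratios, and the 10 genes peaking in the class. Further list members, the ones set beside a count, were chosen after their values were seen. Ahsp, Mx1 and Mx2 were not analysed here. Some genes that the rule names are not reported here. In all, 13 planned settings and 3 added after the data were seen were tried.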

Additional observations from a re-analysis of the deposited data

How the results depend on the processing

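Log2 ratios are DKO over control, and list values are medians. No replicate was left out and no paired analysis was possible, since each genotype had 1 library. Over the 13 planned settings and the 3 added after seeing the data, the lists of interferon-stimulated, MHC class I, ubiquitin, S phase, membrane, transcription factor, heme, iron, apoptosis, histone, ribosomal and mitochondrially encoded genes kept their direction wherever a median was given, and the others changed sign in at least 1 setting. Causes were not tested. A floor of 2000 UMIs, a mitochondrial limit of 10% and 0.5 added counts moved no count or list median beyond the limits set.

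With all UMIs as the scale, 58 genes were at least 2-fold higher and 85 lower, transcription factors stood at 0.50, cell cycle inhibitors at 0.28 and mitochondrially encoded genes at -0.52. With 50 CPM required, 55 were higher and 81 lower. With no filter, 448 were higher, the number of genes at least 2-fold lower in DKO was 2256, and the overall median was -0.23. A floor set from the top barcodes of each library gave stage markers 0.16, mitochondrially encoded -0.51 and ribosomal -0.46. Equal weights per barcode gave mitochondrially encoded -0.79, and equal weights per hemoglobin step gave stage markers 0.11. Between 45 and 70% hemoglobin, 146 genes were higher, with mitochondrially encoded -0.69, ribosomal -0.53 and the plasma cell gene Igha at 0.30. Without the 5% of barcodes with most UMIs, cell cycle inhibitors stood at -0.21.

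Without leukocyte-bearing barcodes the values were stage markers -0.08283, heme 0.10, membrane 0.29, clearance -0.10, mitosis 0.19, immediate response 0.70 and ribosomal -0.18. Free RNA subtraction took 71.2% of control and 50.2% of DKO non-hemoglobin UMIs, since neutrophil UMIs of leukocyte-bearing barcodes were counted as free RNA. It gave 1111 genes higher, an overall median of 0.38, stage markers -0.27, heme 0.01735, iron 0.48, membrane 0.26, clearance -0.15, S phase 5.60, mitosis 0.21, cell cycle inhibitors 0.62, apoptosis 0.41, interferon-stimulated -2.04, MHC class I -4.81, ubiquitin -1.98, antioxidants 0.05228, stress response -0.08561, immediate response 0.50, ribosomal -0.18, histones 0.06507 and proteasome 0.12.

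Of the added settings, free RNA subtraction with leukocyte-bearing barcodes left out gave 110 genes lower, stage markers -0.13, heme 0.05076, membrane 0.25, clearance -0.13, mitosis 0.14, mitochondrially encoded -0.35, glycolysis 0.16, stress response -0.02331, immediate response 0.75, ribosomal -0.14 and the gene Itga2b at 0.0715. Barcodes of 6000 to 12000 UMIs gave 146 genes higher and 613 lower, stage markers 0.81, membrane 0.58, transcription factors 0.51, clearance 0.36, mitosis -0.27, cell cycle inhibitors -0.24, ubiquitin -1.04, mitochondrially encoded -0.45, glycolysis -1.41, stress response 0.39, immediate response -0.58 and ribosomal -0.76. With the trend over gene span taken out, stage markers stood at -0.005044, heme at 0.26, ubiquitin at -0.64, mitochondrially encoded at -0.33, immediate response at -0.04145, ribosomal at -0.11 and histones at 0.51.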
